A study of Mus musculus with 16 samples.

Results

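The 10 genes described here encode 7 subunits of the AP-1 transcription factor (Fos, Fosb, Fosl1, Fosl2, Jun, Junb and Jund) and 3 other transcription factors of the early response (Egr1, Atf3 and Klf4). They were taken by name, 10 of the 22367 protein-coding genes of the GENCODE vM1 annotation of mm9. All 10 symbols were found, each at 1 gene. The data are peak lists from chromatin immunoprecipitation followed by sequencing (ChIP-seq) of 3 trimethylation marks of histone H3 in cells sorted from the skin of wild-type male mice of the CD1 x FVB strain, 15 to 20 mice by the labels. EA-HFSCs are hair follicle stem cells of early anagen, sorted as CD34+ / α6-integrin+ at postnatal days (PD) 22 to 25, when they divide, and LC-HFSCs are cells with the same surface markers in late catagen, sorted at PD 38 to 44, when they are quiescent. Non-EA-HFSCs and non-LC-HFSCs are CD34- / α6-integrin+ cells sorted at the same ages, and by the methods of the study these are mostly epidermis and lower outer root sheath, so that they are a mixture. The comparison between the ages asks how marks at these genes differ between dividing and quiescent stem cells, and the comparison with CD34- cells asks whether the same holds outside the bulge.

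AP-1 is a dimer of a Fos family and a Jun family protein, or of Jun proteins, that binds DNA through a basic region and a leucine zipper. Fos, Fosb, Junb and Egr1 are classic immediate early genes that are transcribed within minutes of a growth factor or stress signal, without new protein synthesis. H3K4me3 marks the starts of active and poised genes, H3K27me3 is laid down by Polycomb at silent developmental genes, and H3K9me3 is typical of heterochromatin.

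For each population and mark there was 1 list, made by the authors from pooled reads of independent experiments, so that differences between the populations have no replicate behind them and no p-value is given. A list holds the position of each peak and its score, which is the -log10 of its p-value multiplied by 10. The H3K4me3 lists held 14718 peaks in LC-HFSCs and 18996 to 24498 in the other populations, while the H3K27me3 and H3K9me3 lists of LC-HFSCs held 1909 and 1414 peaks against 15273 to 42277 elsewhere. The lists hold no read numbers. By the methods of the study, the pooled reads of LC-HFSCs were more numerous than those of EA-HFSCs, and the reads did not suffice to saturate the peaks of H3K27me3 and H3K9me3. The number, width and score of peaks depend on depth and background, and scores were not compared between lists. Scores of H3K4me3 also pile up at 3100, shared by 590 peaks in EA-HFSCs, 0 in LC-HFSCs, 2701 in non-EA-HFSCs and 874 in non-LC-HFSCs. A peak present in some cells only and a weak mark in all cells cannot be told apart. Of 8 markers of bulge stem cells, all had H3K4me3 at a start in both HFSC populations, and in both non-HFSC populations Cd34 alone had none. H3K27me3 lay at 5 of these 8 (Cd34, Lhx2, Sox9, Lgr5 and Tbx1) in both non-HFSC populations and at none in either HFSC population. Over all genes it was at 16.8% in non-EA-HFSCs, 12.9% in non-LC-HFSCs, 14% in EA-HFSCs and 3.73% in LC-HFSCs. All 5 markers of basal keratinocytes had H3K4me3 in every population and none of 5 leukocyte markers did. Of 5 markers each, melanocyte genes had H3K4me3 at 1 to 2 (Tyr, Tyrp1 and Sox10 without in all lists), fibroblast genes at 2 to 3 (Col3a1 and Lum without) and endothelial genes at 1 (Kdr). The part of such other cells in the peaks of the 10 genes was not tested.

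Every one of the 10 genes carried H3K4me3 within 3000 bp of a transcript start in all 4 populations. Over all protein-coding genes, 62.4% had such a peak in EA-HFSCs, 55.9% in LC-HFSCs, 61.7% in non-EA-HFSCs and 58.8% in non-LC-HFSCs, and 54.9% had one in all 4. The gene bodies of all 10 also held H3K4me3 in every list, as did 63.1% of all gene bodies in EA-HFSCs, 56% in LC-HFSCs, 62.2% in non-EA-HFSCs and 59.1% in non-LC-HFSCs. H3K27me3 was found at 1 of the 10 genes, Fosl1, in EA-HFSCs (14% of all genes), in non-EA-HFSCs (16.8%) and in non-LC-HFSCs (12.9%), and at none in LC-HFSCs (3.73%). H3K9me3 was found at the starts of 7 of the 10 in EA-HFSCs (Fos, Fosl2, Jun, Junb, Egr1, Atf3 and Klf4), at 1 in non-LC-HFSCs (Junb) and at none in LC-HFSCs or non-EA-HFSCs, where 47.9%, 14.1%, 0.505% and 4.14% of all genes had it. Over the gene bodies H3K27me3 was again at Fosl1 alone, against 14.7% of all genes in EA-HFSCs, 3.81% in LC-HFSCs, 17% in non-EA-HFSCs and 13.4% in non-LC-HFSCs. H3K9me3 lay over 7 bodies in EA-HFSCs (51.1% of all genes), none in LC-HFSCs (1.46%) or non-EA-HFSCs (13.4%), and 2 in non-LC-HFSCs (Junb and Atf3, against 22.2%). In the late catagen stem cells, then, no repressive peak lay at the start or over the body of any of the 10 genes. In these cells 1.51% of all genes had H3K4me3 together with a repressive mark at a transcript start.

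**Figure D1:**
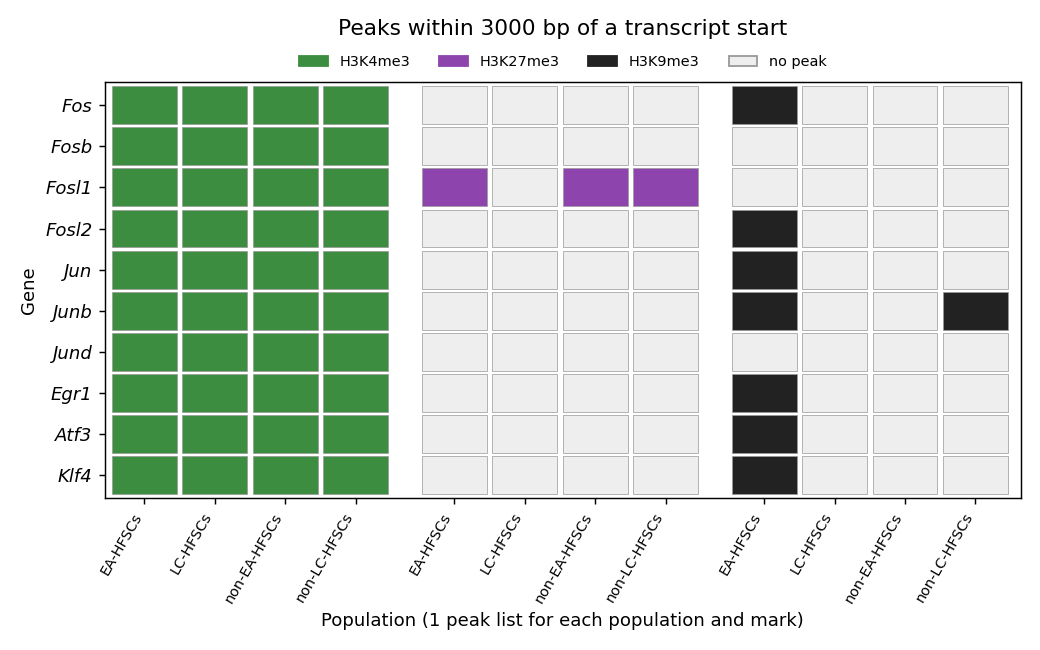
Presence of a peak within 3000 bp of a transcript start of each of the 10 genes (rows) in each of the 12 peak lists (columns, grouped by mark, 1 list for each population and mark). All 10 genes have H3K4me3 in every population, Fosl1 alone has H3K27me3, and H3K9me3 stands at 7 genes in EA-HFSCs and at Junb in non-LC-HFSCs.

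The width of H3K4me3 at a gene was taken as the summed length of the peaks that reached the window of 3000 bp around its transcript starts. The 10 genes had wide H3K4me3, with a median width of 6408 bp in EA-HFSCs, 5613.5 bp in LC-HFSCs, 5934 bp in non-EA-HFSCs and 5453.5 bp in non-LC-HFSCs. Over all genes with a peak, the medians were 3265, 2679, 2753 and 2445 bp in the same order. At or above the 75th percentile of all genes stood 8 of the 10 in EA-HFSCs, 9 in LC-HFSCs, 8 in non-EA-HFSCs and 9 in non-LC-HFSCs, and at or above the 95th percentile 3, 4, 4 and 5. Junb (percentile 99.1 in EA-HFSCs), Fosl2 (98.8) and Klf4 (97.2) were the widest. Fosl1 was the exception, below the median of all genes in every list (percentiles 33.0, 12.3, 30.6 and 25.6).

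**Figure D2:**
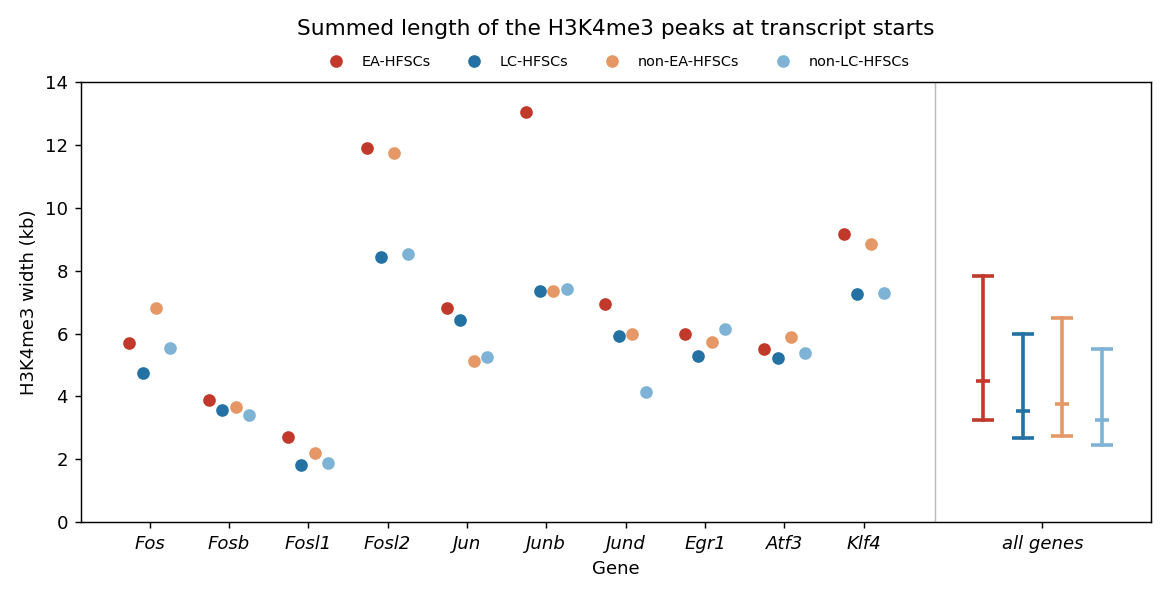
Summed length of the H3K4me3 peaks at the transcript starts (kb, vertical axis) of each gene, with 1 point for each population, and at the right the median (lower bar), 75th percentile (middle bar) and 95th percentile (upper bar) over all genes with a peak. Fosl2, Junb and Klf4 lie highest and Fosl1 lies below the median of all genes in each population.

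Fos is the prototype of the family and the best known immediate early gene. It lies on chromosome 12 of mm9 from 86814840 to 86818223 on the plus strand, with 3 transcript starts. Its H3K4me3 was 5692 bp wide in EA-HFSCs, 4745 bp in LC-HFSCs, 6818 bp in non-EA-HFSCs and 5526 bp in non-LC-HFSCs. The upstream edge hardly moved, at 2477, 2543, 2343 and 2250 bp before the start in the same order, whereas the downstream edge lay at 3214, 2201, 4474 and 3275 bp after it. The peak was thus shorter on the gene side in late catagen in both kinds of cells, and covered 100% of the gene body in non-EA-HFSCs and 65.1% in LC-HFSCs. The EA-HFSC list also held an H3K9me3 peak of 1557 bp (score 86.59) from 304 bp upstream to 1252 bp downstream, wholly under H3K4me3.

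The Fos promoter holds a match to the CArG box, an element through which such genes are known to be induced. It is printed here because H3K4me3 covered it in all 4 populations. The stretch chr12:86814358-86814560 (mm9, plus strand, 482 to 280 bp before the start) is given with its matches to the AP-1 motif TGANTCA and to the CArG box in capitals. The CArG box is the site bound by serum response factor. The last 100 bases before the start, chr12:86814740-86814839 (plus strand), are given with the TATA box motif TATAAA in capitals.
Fos distal: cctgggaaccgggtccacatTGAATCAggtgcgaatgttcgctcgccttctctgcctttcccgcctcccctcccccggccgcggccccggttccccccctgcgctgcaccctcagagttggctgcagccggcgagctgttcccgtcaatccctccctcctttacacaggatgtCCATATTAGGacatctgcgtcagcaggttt
Fos proximal: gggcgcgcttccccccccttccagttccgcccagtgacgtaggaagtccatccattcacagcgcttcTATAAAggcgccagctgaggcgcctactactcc

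Fosb encodes a close relative of Fos and is induced with kinetics like those of Fos. The gene is on chromosome 7 from 19888070 to 19895394 on the minus strand. H3K4me3 measured 3873 bp in EA-HFSCs, 3554 bp in LC-HFSCs, 3663 bp in non-EA-HFSCs and 3399 bp in non-LC-HFSCs, values closer together in base pairs than at any other of the 10 genes. In EA-HFSCs a second peak of 2722 bp lay further along the gene, from 4079 to 6800 bp after the start, and in non-EA-HFSCs there was one of 523 bp from 4999 to 5521 bp. Neither late catagen list had a peak there, and the share of the gene body covered was 72.8% in EA-HFSCs, 32.8% in LC-HFSCs, 41.4% in non-EA-HFSCs and 31.4% in non-LC-HFSCs. No repressive peak lay at Fosb in any list. Its promoter also holds a CArG box 272 to 263 bp before the start, printed in capitals for comparison with that of Fos within chr7:19895637-19895686 (minus strand).
Fosb: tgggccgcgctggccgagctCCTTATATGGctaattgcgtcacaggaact

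Fosl1 encodes Fra-1, a Fos family protein without a strong activation domain that is known for its induction later than Fos and in migrating or invasive cells. It lies on chromosome 19 from 5447703 to 5455945 on the plus strand. Its H3K4me3 was 2702 bp wide in EA-HFSCs, 1822 bp in LC-HFSCs, 2204 bp in non-EA-HFSCs and 1880 bp in non-LC-HFSCs, the narrowest of the 10 genes in every list. Its H3K4me3 score was 124.81 in EA-HFSCs (rank 16210 of 21482 peaks), 196.86 in LC-HFSCs (rank 8275 of 14718), 903.57 in non-EA-HFSCs (rank 10309 of 24498) and 537.82 in non-LC-HFSCs (rank 10287 of 18996). It was the one gene with H3K27me3, from 135 bp before to 2417 bp after the start in EA-HFSCs (2553 bp, score 50.33), from 71 bp before to 2860 bp after it in non-EA-HFSCs (2932 bp, score 138.71) and from 361 to 2005 bp after it in non-LC-HFSCs (1645 bp, score 116.38). H3K4me3 of the same population covered 79.5%, 48.8% and 60.1% of these H3K27me3 peaks. Among genes with H3K4me3 in all 4 populations, 8.81% had H3K27me3 at a start in EA-HFSCs, 2.12% in LC-HFSCs, 12.8% in non-EA-HFSCs and 9.1% in non-LC-HFSCs. A further H3K4me3 peak near the 3′ end of Fosl1 covers the start of the overlapping gene Ccdc85b in all 4 populations and cannot be assigned to Fosl1. Only in EA-HFSCs and LC-HFSCs did it reach over the Fosl1 gene body.

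Fosl2 encodes Fra-2, the other late member of the family. Its locus is on chromosome 5 from 32438845 to 32460204 on the plus strand and is the longest of the 10 genes (21360 bp). It had the widest H3K4me3 of the 10 in all populations but EA-HFSCs, with 11893 bp in EA-HFSCs, 8429 bp in LC-HFSCs, 11753 bp in non-EA-HFSCs and 8530 bp in non-LC-HFSCs. Both early anagen lists thus stood above both late catagen lists, at either side of the CD34 sort. The upstream edge lay at 4219, 4144, 4236 and 4331 bp in the same order, a range of 187 bp, and the downstream edge at 7673, 4284, 7516 and 4198 bp, a range of 3475 bp. The difference therefore lay inside the gene. The peak also covers the start of the predicted gene Gm10463. In EA-HFSCs, Fosl2 carried the H3K9me3 peak with the highest score of the 10 genes, 249.03 (rank 942 of 42277), 3872 bp long from 604 bp before to 3267 bp after the start, with a smaller one of 813 bp just upstream.

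Jun encodes c-Jun, the founding partner of Fos. It lies on chromosome 4 from 94715725 to 94718913 on the minus strand. Its H3K4me3 was 6821 bp wide in EA-HFSCs, 6447 bp in LC-HFSCs, 5125 bp in non-EA-HFSCs and 5263 bp in non-LC-HFSCs. Here the stem cells stood above the CD34- cells at both ages by this width. The ratios were 1.33 in early anagen (percentile 70.3 of all genes) and 1.22 in late catagen (percentile 78.1), while the ages differed little. Counting only bases inside the window of 3000 bp, the ratio of stem cells to CD34- cells was 1.09 in early anagen and 0.985 in late catagen. The difference between cell types lay mainly downstream, where the edge was at 4525 and 4357 bp in the stem cells and at 3265 and 3093 bp in the CD34- cells. In LC-HFSCs, where no score reached 3100, the Jun peak had a score of 1776.77 (rank 14 of 14718), and in the other 3 lists it shared the score of 3100. In EA-HFSCs there were 2 H3K9me3 peaks, of 2534 bp over the start and the gene (score 70.88) and of 912 bp upstream (score 56.35).

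Junb encodes a Jun protein known to restrain growth in epidermis and haematopoietic cells. It is a gene of 1 exon on chromosome 8 from 87500811 to 87502617 on the minus strand. H3K4me3 at its start was 13049 bp wide in EA-HFSCs, the widest of all 10 genes in any list, and 7357 bp in LC-HFSCs, 7353 bp in non-EA-HFSCs and 7429 bp in non-LC-HFSCs. The 3 lower values lie within 76 bp of each other, and the downstream edge lay at 4286, 4625, 4273 and 4298 bp in the 4 populations. The extra length in EA-HFSCs was upstream, where the peak began 8762 bp before the start. An upstream element from 8317 to 5590 bp before the start was in fact marked in all 4 populations, as a separate peak of 2237 bp in LC-HFSCs, 2728 bp in non-EA-HFSCs and 2032 bp in non-LC-HFSCs, and only in EA-HFSCs was it joined to the peak over the gene. From 9000 bp upstream to 5000 bp downstream, a range chosen after the peaks were seen, H3K4me3 covered 13049 bp in EA-HFSCs, 9594 bp in LC-HFSCs, 11385 bp in non-EA-HFSCs and 9461 bp in non-LC-HFSCs. Over this range the late catagen to early anagen ratio was 0.735 in the stem cells and 0.831 in the CD34- cells. With peaks less than 1 kb apart merged, the non-EA-HFSC peak became 12591 bp wide and the non-LC-HFSC to non-EA-HFSC ratio 0.590.

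Junb was also the one gene with H3K9me3 at its start outside EA-HFSCs. In EA-HFSCs the peak was 1774 bp long (score 85.91) and spanned the start, and in non-LC-HFSCs it was 485 bp long with a score of 42.19, close to the lowest score of 40 in that list, and lay in the gene from 699 to 1183 bp after the start. The base of its promoter, chr8:87502618-87502717 (minus strand, the last 100 bp before the start), is printed for comparison with Fos, with TATAAA in capitals at 30 to 25 bp before the start, where Fos has it at 33 to 28 bp.
Junb proximal: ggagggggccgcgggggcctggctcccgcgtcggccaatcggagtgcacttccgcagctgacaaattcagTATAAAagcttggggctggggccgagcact

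Jund, the Jun gene known for steady rather than induced expression, lies on chromosome 8 from 73221638 to 73224515 on the plus strand. H3K4me3 was 6930 bp wide in EA-HFSCs, 5934 bp in LC-HFSCs, 5992 bp in non-EA-HFSCs and 4147 bp in non-LC-HFSCs. The EA-HFSC and LC-HFSC peaks began at the same base, 947 bp before the annotated start, and the non-EA-HFSC peak at 205 bp before it. The non-LC-HFSC peak began only 94 bp after it, so that this list leaves the annotated start itself uncovered. Jund has 2 transcript starts, and the annotated start is the one furthest upstream. A second non-LC-HFSC peak followed from 4574 to 5572 bp and is not in that width, whereas in the other populations the single peak reached into this stretch. The start of the predicted gene Gm11175 lies in the same window, and the marks of both cannot be told apart. No repressive peak lay at Jund in any list.

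**Figure D3:**
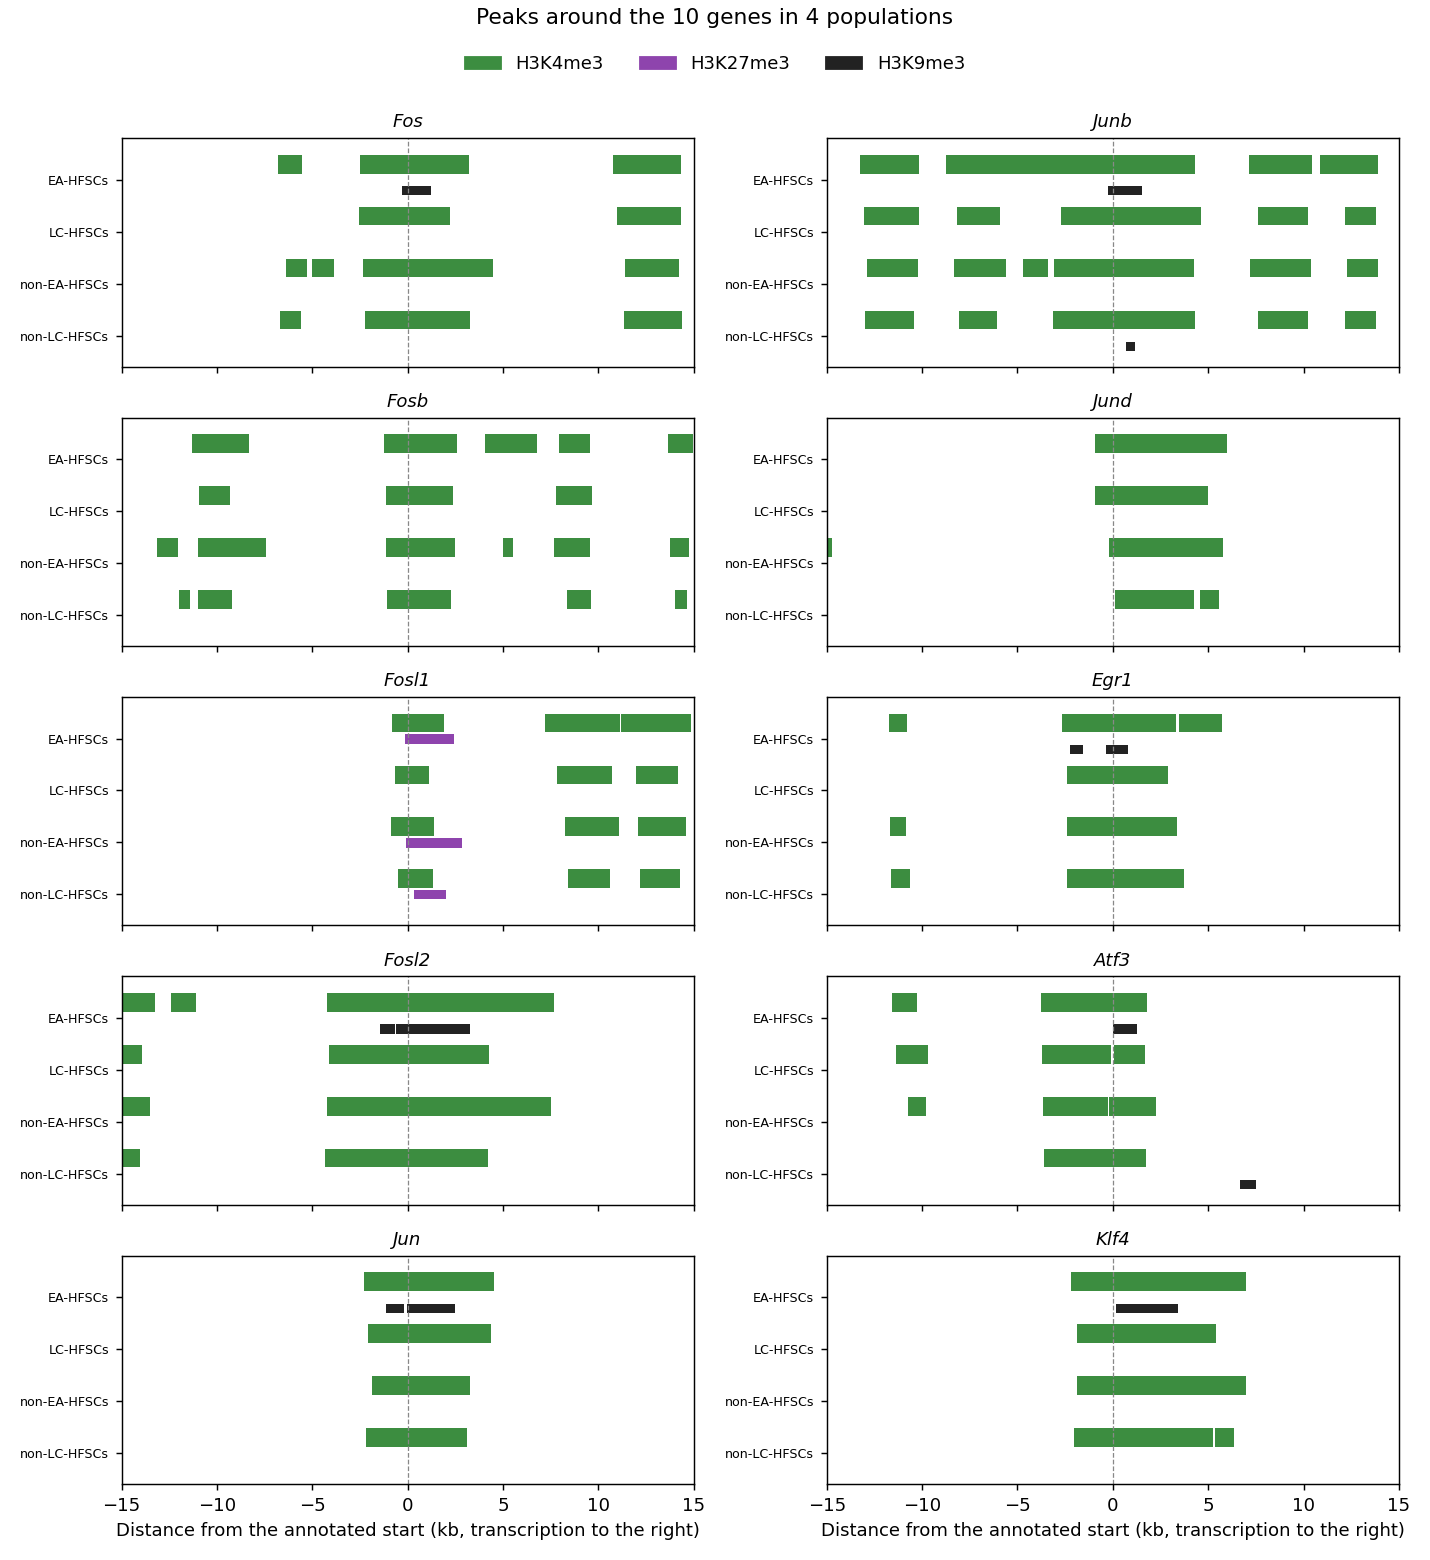
Peaks from 15 kb upstream to 15 kb downstream of the annotated start of each gene (horizontal axis, kb, transcription to the right) in the 4 populations, with H3K4me3 as tall bars and H3K27me3 and H3K9me3 as thin bars. Junb has 1 joined peak in EA-HFSCs and separate peaks in the other populations. In both early anagen lists the Fosl2 peaks reach further into the gene and the Klf4 peaks further downstream of the start.

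Egr1 encodes a zinc finger factor induced alongside Fos. The locus is on chromosome 18 from 35020861 to 35024638 on the plus strand. H3K4me3 was 5995 bp wide in EA-HFSCs, 5293 bp in LC-HFSCs, 5742 bp in non-EA-HFSCs and 6136 bp in non-LC-HFSCs, so that the order of the ages differed between stem cells and CD34- cells. The EA-HFSC peak had a score of 3184.01, and Fosl2, Jun and Klf4 shared 3100 in that list. A second EA-HFSC peak of 2264 bp followed from 3444 to 5707 bp after the start and covers the start of Gm17507, and with peaks less than 1 kb apart merged the EA-HFSC width became 8375 bp and the LC-HFSC to EA-HFSC ratio 0.632. H3K9me3 in EA-HFSCs formed 2 peaks, of 1153 bp over the start (score 74.74) and of 693 bp upstream (score 40.27).

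Atf3 encodes a stress-induced factor of the ATF family that pairs with Jun proteins. The gene runs on chromosome 1 from 192994175 to 193007219 on the minus strand. H3K4me3 measured 5525 bp in EA-HFSCs, 5224 bp in LC-HFSCs, 5876 bp in non-EA-HFSCs and 5381 bp in non-LC-HFSCs. Over the 4 populations the upstream edge ranged by 128 bp and the downstream edge by 541 bp. In LC-HFSCs the mark was split at the start into peaks of 1634 and 3590 bp, the second of which lay wholly upstream while the first began 64 bp after the start, and in non-EA-HFSCs into peaks of 2461 and 3415 bp. Only the 5′ part of this gene of 13045 bp was marked, 12.5% to 17.2% of its body. H3K9me3 formed a peak of 1227 bp after the start in EA-HFSCs (score 81.49), and in non-LC-HFSCs a peak of 866 bp (score 54.34) lay in the gene body from 6640 to 7505 bp, the 1 H3K9me3 peak at the 10 genes with no overlap with H3K4me3.

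Klf4 encodes a zinc finger factor needed for the epidermal barrier and known as a pluripotency factor. It lies on chromosome 4 from 55540013 to 55545347 on the minus strand, with 4 transcript starts. H3K4me3 was 9181 bp wide in EA-HFSCs, 7270 bp in LC-HFSCs, 8851 bp in non-EA-HFSCs and 7291 bp in non-LC-HFSCs. As at Fosl2, the 2 early anagen lists stood together above the 2 late catagen lists, and the difference lay on the downstream side, with edges at 6994, 5383, 6956 and 5271 bp against upstream edges at 2186, 1886, 1894 and 2019 bp. In non-LC-HFSCs a separate peak of 1035 bp followed from 5340 to 6374 bp after the start, which is not counted in its width or edge, so that its downstream shift rests on where the peak was split. A single H3K9me3 peak of 3236 bp lay at Klf4 in EA-HFSCs, with a score of 57.43.

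Between dividing and quiescent stem cells, H3K4me3 was narrower in LC-HFSCs at all 10 genes. This is the common direction, since 90.4% of the 12473 genes with a peak in both lists were narrower. The median LC-HFSC to EA-HFSC ratio was 0.845 for the 10 genes and 0.814 for all genes. Narrowing past 1.5-fold was seen at 1 of the 10, Junb (0.564), against 18.3% of all genes, and widening at none of the 10, against 9.53% by any amount and 0.208% past 1.5-fold. Fosl1 (0.674), Fosl2 (0.709) and Klf4 (0.792) followed Junb. Jun (0.945) and Atf3 (0.946) changed least. These calls moved with the way peaks were joined. With peaks less than 1 kb apart merged, Egr1 (0.632) also passed 1.5-fold, and with the widest peak alone Atf3 (0.650) did. Junb did not pass it with bases inside the window (0.955) or over its wider range (0.735), and gave no ratio when 50% of the peak had to lie in the window. Counting only bases inside the window of 3000 bp, 8 of the 10 were narrower and Fosl2 and Jund had equal widths, with a median of 0.950 against 0.827 for all genes.

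In CD34- cells the median non-LC-HFSC to non-EA-HFSC ratio was 0.884 for the 10 genes and 0.880 for all genes. H3K4me3 was narrower in non-LC-HFSCs at 7 of the 10, where 81.6% of 13053 genes were, and slightly wider at Jun (1.03), Junb (1.01) and Egr1 (1.07). Jund (0.692) and Fosl2 (0.726) had the lowest ratios. None of the 10 passed 1.5-fold in either direction, as 9.87% of all genes did by narrowing and 0.414% by widening. With peaks less than 1 kb apart merged, Jund stood at 0.914 and Junb, at 0.590, passed 1.5-fold by narrowing, and with the widest peak alone Atf3 (1.58) passed it by widening.

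**Figure D4:**
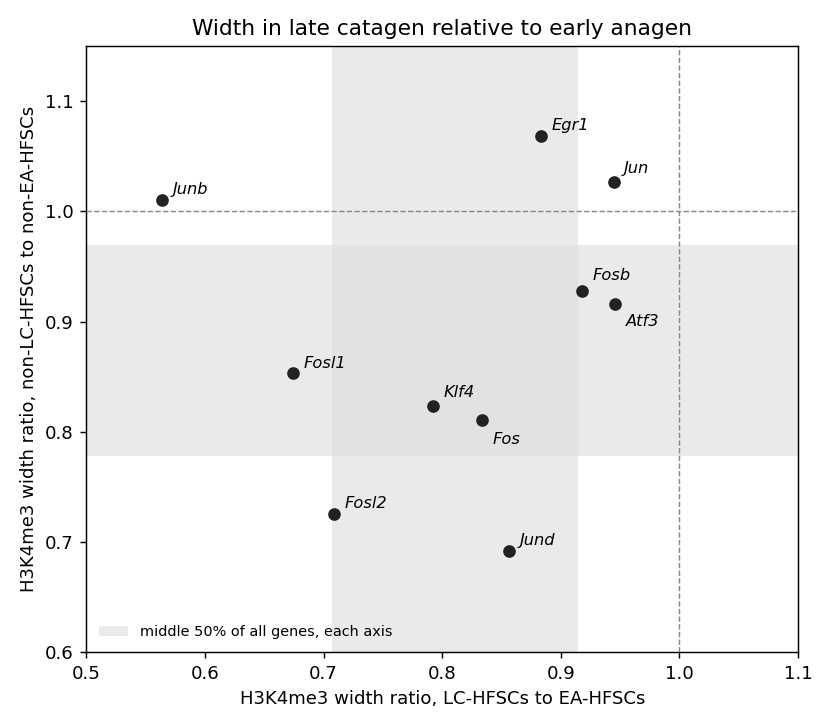
Ratio of H3K4me3 width in late catagen to early anagen for each gene in stem cells (horizontal axis) and in CD34- cells (vertical axis), with grey bands for the middle 50% of all genes on each axis and dashed lines at 1. All 10 genes lie left of 1 on the horizontal axis, Junb furthest at 0.564, and Jun, Junb and Egr1 lie above 1 on the vertical axis.

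Set against CD34- cells of the same age, the stem cells had a median ratio of 1.05 in early anagen, where the median of all genes was 1.18, and of 0.989 in late catagen, where it was 1.07. None of the 10 was narrower past 1.5-fold in early anagen (1.51% of all genes). EA-HFSCs were wider at 8 of the 10 genes (81% of all genes), past 1.5-fold at Junb only (1.77, with 16.6% of all genes past it). That call was lost with peaks less than 1 kb apart merged (1.04), with bases inside the window (6001 bp in both lists) and over the wider Junb range (13049 against 11385 bp), and with the widest peak alone Atf3 (1.62) passed as well. Fos (0.835) and Atf3 (0.940) were narrower in EA-HFSCs than in non-EA-HFSCs. LC-HFSCs were narrower than non-LC-HFSCs at 7 of the 10 genes, where 29.1% of all genes were narrower, and wider at Fosb (1.05), Jun (1.22) and Jund (1.43). Counting only bases inside the window, Jun stood at 0.985 in this comparison. None of the 10 passed 1.5-fold there, as 1.57% of all genes did by being narrower and 6.76% by being wider. The ratios below 1 in late catagen were small differences, from 0.859 at Fos and 0.863 at Egr1 to 0.997 at Klf4. These comparisons share lists with those between the ages and are not independent of them.

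The edges of H3K4me3 gave the side on which width differed, a measure added after the widths had been seen. The downstream edge ranged more over the 4 populations than the upstream edge at 9 of the 10 genes, all but Junb, where 66.8% of 12281 genes did so. The median range was 296.5 bp upstream and 1135.5 bp downstream for the 10 genes, and 365 and 647 bp for all genes. The downstream edge lay further from the start in EA-HFSCs than in LC-HFSCs at 9 of the 10 (84.6% of all genes), all but Junb, and further in non-EA-HFSCs than in non-LC-HFSCs at 8 (75.5%), all but Junb and Egr1. The median shift downstream was 607 bp in the stem cells and 347.5 bp in the CD34- cells, against 322 and 166 bp over all genes. The upstream edge lay further out in EA-HFSCs than in LC-HFSCs at 8 of the 10 (79% of all genes), with a median shift of 116 bp against 161 bp, and further out in non-EA-HFSCs than in non-LC-HFSCs at 5 (70.4%), with a median shift of -15 bp against 92 bp. These shifts were not adjusted for the length of the peaks. Peaks outside the window do not count in an edge, and edges with merged peaks were not computed. In non-LC-HFSCs a separate peak reached 5572 bp at Jund and 6374 bp at Klf4, beyond the edges used (4240 and 5271 bp). The CD34- shifts of 1546 bp at Jund and 1685 bp at Klf4 thus rest in part on where a peak was split. In EA-HFSCs a separate Egr1 peak reached 5707 bp, beyond its edge of 3327 bp.

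H3K9me3 at the 7 genes in EA-HFSCs lay wholly under H3K4me3 of the same cells. Its scores ran from 40.27 to 249.03, and the Fosl2 peak was the 1 with a score of at least 100. A share of 7 in 10 is that of marked genes in general, since 71.9% of the genes with H3K4me3 in all 4 populations had H3K9me3 at a start in EA-HFSCs, against 0.366% in LC-HFSCs, 4.11% in non-EA-HFSCs and 20.1% in non-LC-HFSCs. The 7 genes with it had H3K4me3 of 5525 to 13049 bp in EA-HFSCs (median 6821 bp), and the 3 without it (Fosb, Fosl1 and Jund) 2702 to 6930 bp (median 3873 bp). Over all genes with H3K4me3 in EA-HFSCs, the share with H3K9me3 was 51.7% up to the 25th percentile of width and 70.7% to the 50th. It was 76.0% to the 75th percentile, 78.9% to the 95th and 77.5% above that. The 7 genes stood at percentile 85.7 (Atf3) or above. Counting both repressive marks, 8 of the 10 genes had H3K4me3 and a repressive mark at a start in EA-HFSCs (44.9% of all genes), 1 in non-EA-HFSCs (12.7%), 2 in non-LC-HFSCs (16.7%) and 0 in LC-HFSCs. These shares are over all genes, with or without H3K4me3, whereas all 10 carry it. In EA-HFSCs 10041 genes had both, out of 13967 with H3K4me3.

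Around the genes, within 15 kb of the start and outside the window, 18 further H3K4me3 sites without a start of another coding gene were found at 8 of the 10 genes, by a range chosen after the peaks were seen. Such sites were found at 25.6% of the 12281 genes with H3K4me3 in all 4 populations, 4090 sites in all with a site counted for each gene it is near. Of the 18 sites 14 were covered in EA-HFSCs (61.2% of the 4090), 8 in LC-HFSCs (26.2%), 16 in non-EA-HFSCs (79.4%) and 11 in non-LC-HFSCs (45.3%), and 7 in all 4 (21.2%). The order of the populations was thus that of all genes. The sites in all 4 included one from 10792 to 14390 bp downstream of Fos, one from 7652 to 9678 bp downstream and one from 11321 to 7438 bp upstream of Fosb, the Junb element described above, the downstream ends of Jund and Klf4, and one from 16196 to 13238 bp upstream of Fosl2. Upstream of Fos, a site from 6796 to 5279 bp before the start was marked in 3 populations and not in LC-HFSCs. A site from 11730 to 10627 bp upstream of Egr1 was likewise marked in the other 3 populations and not in LC-HFSCs, and one from 11568 to 9710 bp upstream of Atf3 was marked in all but non-LC-HFSCs. Jun had no further peak in this range, and those of Fosl1 lay at starts of Ccdc85b and Fibp.

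The 1000 bp around the annotated start had a median GC content of 62.2% for the 10 genes and 54.8% for all genes, and a median ratio of observed to expected CpG of 0.741 and 0.549. Klf4 was highest on both (69.8% and 0.959). Jund was the exception, with 46.6% GC and a CpG ratio of 0.240 at its annotated start, the start that its non-LC-HFSC peak left uncovered. These values describe the outermost of its 2 transcript starts, and the other was not measured. In the 500 bp before the annotated start, on both strands, the CArG box was matched at Fos, Fosb and Egr1 (5 times at Egr1), 3 of the 10 against 2.7% of 22367 promoters. TGANTCA, the AP-1 site with its middle base left open, was matched at Fos only (as TGAATCA), against 12.1%. TGACGTCA, the site for CREB and ATF factors, was matched at none of the 10, against 2.21%. TATAAA was matched at Fos, Fosl1 and Junb, against 24.6%. A match is a description of the sequence and not evidence of binding, and no match says only that these letters are not in this window.

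Other genes of the same response were taken from 3 lists. Of 29 other immediate early genes, 27 had H3K4me3 at a start in LC-HFSCs (55.9% of all genes) and 28 in each of the other populations (58.8% to 62.4%). Csrnp1 had none in any list, and Egr4, of the same family as Egr1, had none in LC-HFSCs. The median width in EA-HFSCs was 5322.5 bp and the widest was Nr4a2 (9099 bp), a nuclear receptor. The median LC-HFSC to EA-HFSC ratio was 0.901, with 20 of 27 narrower (90.4% of all genes), and the non-LC-HFSC to non-EA-HFSC ratio 0.894, with 22 of 28 narrower (81.6%).

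H3K27me3 was present at 5 of the 29 in EA-HFSCs (Egr2, Egr4, Nr4a2, Nr4a3 and Arc), 2 in LC-HFSCs (Egr4 and Nr4a2), 7 in non-EA-HFSCs and 5 in non-LC-HFSCs, where 14%, 3.73%, 16.8% and 12.9% of all genes had it. Egr2 and Nr4a3 thus had it in EA-HFSCs and both CD34- lists and not in LC-HFSCs, as Fosl1 did. H3K9me3 in EA-HFSCs was found at 23 of the 29 (Ier2, Ier3, Egr2, Egr4, Klf2, Klf6, Nr4a1, Nr4a2, Nr4a3, Dusp1, Dusp2, Dusp5, Dusp6, Zfp36, Btg2, Myc, Gadd45b, Csrnp1, Per1, Ptgs2, Rhob, Socs3 and Trib1), at none in LC-HFSCs or non-EA-HFSCs and at 6 in non-LC-HFSCs. In EA-HFSCs it was at 47.9% of all genes and at 71.9% of those with H3K4me3 in all 4 populations, and in non-LC-HFSCs at 14.1% and 20.1%. Of all genes, 0.505% had it in LC-HFSCs and 4.14% in non-EA-HFSCs.

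Of 12 other genes of the AP-1 type of basic leucine zipper factor, 10 had H3K4me3 in non-LC-HFSCs (58.8% of all genes) and 11 in each other list (55.9% to 62.4%). Batf, known from lymphocytes, had none in any list, and Batf3, known from dendritic cells, had none in non-LC-HFSCs. Both had H3K27me3 in EA-HFSCs and both CD34- lists, and no gene of the list had it in LC-HFSCs (3.73% of all genes). Maf was the widest in EA-HFSCs (8773 bp). H3K9me3 in EA-HFSCs was found at 9 of the 12 (Batf2, Atf2, Atf4, Atf7, Maf, Maff, Mafg and Mafk among them), near the 71.9% of genes with H3K4me3 in all 4 populations. In LC-HFSCs it was at none (0.505% of all genes). The median LC-HFSC to EA-HFSC width ratio was 0.776, with 9 of 11 narrower (90.4% of all genes).

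The 13 upstream regulators, which carry the signal to these genes (serum response factor, its partners, CREB and MAP kinases), all had H3K4me3 in every list. In the stem cells none had H3K27me3. H3K9me3 in EA-HFSCs was found at 8 of the 13 (Srf, Elk3, Elk4, Mkl2, Creb1, Mapk3 and Mapk7 among them), between the 47.9% of all genes and the 71.9% of those with H3K4me3 in all 4 populations. In LC-HFSCs it was at none (0.505% of all genes). Srf had the widest H3K4me3 (5509 bp), and the median in EA-HFSCs was 3478 bp. All 13 were narrower in LC-HFSCs, as were 90.4% of all genes, with a median ratio of 0.775 against 0.814.

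Taking presence or absence over all 12 lists as the measure of likeness, Fos, Fosl2, Jun, Egr1, Atf3 and Klf4 shared the pattern of H3K4me3 in all 4 populations with H3K9me3 in EA-HFSCs alone. This pattern was common, held by 5669 genes or 25.3% of all, among them Ier2, Dusp1, Btg2, Nr4a1, Maff and Srf. Fosb and Jund had H3K4me3 and no repressive mark in any list, as 2508 genes did (11.2%), Ier5, Klf10 and Cyr61 among them. The pattern of Junb was that of 1630 genes (7.29%), with Myc, Klf6, Dusp5, Dusp6, Atf7 and Mapk7 among them. The pattern of Fosl1 was rare, held by 79 genes (0.353%) and by no gene of the other 3 lists. It rests on a weak H3K27me3 peak in EA-HFSCs (score 50.33, rank 18920 of 25534). That peak is lost with scores of at least 100, and with equal numbers of top-scoring peaks Fosl1 had H3K27me3 in no list.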

How the data were processed

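ChIP-seq of H3K4me3, H3K27me3 and H3K9me3 was analysed in 4 sorted populations, with 1 deposited list for each. The 4 IgG samples had no peak list among the data used here. Single-end reads were trimmed by the authors (Trimmomatic 0.22 in the submitters' processing notes), who aligned them to mm9 with Bowtie2, pooled independent experiments and used MACS to call peaks, with IgG reads as the control. The deposited lists give a score for each peak, which the authors' caller set to 10 times its -log10 p-value.

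From these, overlaps with the 22367 protein-coding genes of GENCODE vM1 (NCBIM37, the assembly of mm9) were computed with Python 3.11.15 and numpy 2.4.6. A peak counted with at least 1 bp within 3000 bp of any transcript start. Positions are 1-based. Overlaps were checked on 5000 simulated peaks and 2000 windows, with 4 of 4 settings recovered. Width is the summed length of whole H3K4me3 peaks, called narrower or wider past 1.5-fold. No test was possible with 1 list per condition. The 10 genes, the lists and the measures were chosen with earlier results of these data known. All 10 genes are named. Of the other lists, genes are named that carried a repressive mark in a stem cell list, lacked H3K4me3 in any list or were widest in EA-HFSCs, or as examples of a shared pattern, and some genes that meet this rule are not reported here. Sequences were read from the NCBIM37 genome.

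Alternatives were scores of at least 50 or 100, equal numbers of top-scoring peaks, merging of peaks less than 1 kb apart, a window or gene body that holds 50% or more of the peak, a window of 1000 bp, the annotated start only, and width as the widest peak or as bases in the window.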

Additional observations from a re-analysis of the deposited data

Results flagged for a closer look

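At 3 of the 10 genes the width of H3K4me3 moved in opposite directions between the ages in stem cells and in CD34- cells, and this difference was not tested because there is 1 list for each population. For Jun the late catagen to early anagen ratio was 0.945 in HFSCs and 1.03 in non-HFSCs. For Egr1 it was 0.883 and 1.07. For Junb it was 0.564 and 1.01, and with peaks less than 1 kb apart merged the ratio in non-HFSCs became 0.590, so that both then fell below 1. The same combination, narrower in LC-HFSCs and wider in non-LC-HFSCs, was seen at 16.1% of the 12281 genes with H3K4me3 in all 4 populations.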

How the results depend on the processing

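No paired analysis was possible because each population has 1 list of pooled reads, and for the same reason no replicate could be left out. H3K4me3 at the start was found at all 10 genes in every list under every alternative, except that taking equal numbers of top-scoring peaks dropped Fosl1 from EA-HFSCs and that the requirement of 50% of the peak in the window was met at 9 of the 10 in EA-HFSCs, where most of the Junb peak lies outside the window. The median width ratios stayed within 1.5-fold of the values reported. No alternative turned a median to the other side of 1. With 50% of the peak required in the gene body, H3K4me3 was counted at 6 of the 10 in LC-HFSCs and at 6 in EA-HFSCs. The calls of repressive marks rested on weak peaks, apart from H3K9me3 at Fosl2 in EA-HFSCs (score 249.03) and H3K27me3 at Fosl1 in the CD34- lists. H3K27me3 at Fosl1 scored 138.71 in non-EA-HFSCs and 116.38 in non-LC-HFSCs and held there with scores of at least 50 or 100. With scores of at least 100, H3K27me3 in EA-HFSCs was at 0 of the 10 genes at the start and over the body, and H3K9me3 there at 1 (Fosl2) by both measures. H3K9me3 in non-LC-HFSCs fell to 0 at starts with a score of at least 50, and over bodies to 1 and, at 100, to 0. Equal numbers of top peaks (1909 for H3K27me3 and 1414 for H3K9me3) left H3K27me3 at 0 genes in every list, and H3K9me3 at 1 in EA-HFSCs and 0 in non-LC-HFSCs. H3K4me3 with a repressive mark was at 1 gene in EA-HFSCs with a score of at least 100 and at 1 in non-LC-HFSCs with 50 or 100. Of the other immediate early genes, H3K27me3 in EA-HFSCs was at 3 with a score of at least 100 or the annotated start only and at 1 in LC-HFSCs with the annotated start only, and with 100 H3K9me3 was at 11 in EA-HFSCs and 0 in non-LC-HFSCs. Of the other basic leucine zipper genes, H3K9me3 was at 1 in EA-HFSCs with 100, at 1 in non-EA-HFSCs with 50 or 100 and 0 with the window of 1000 bp, and at 1, 0 and 1 in non-LC-HFSCs under the same 3 settings. Of the upstream regulators it was at 5 and 3 in EA-HFSCs and at 1 and 0 in non-LC-HFSCs with 50 and 100. Of the 40 member widths, 5 moved past 1.5-fold when only bases in the window were counted, 1 with merging (Junb in non-EA-HFSCs), 1 with the widest peak (Atf3 in non-EA-HFSCs, 3415 bp) and 1 with equal numbers (Fosl1). With the widest peak the Atf3 ratio became 0.650 in stem cells and 1.58 in CD34- cells, and with bases in the window Klf4 turned to 1.02 in CD34- cells. The lists hold no read numbers, so that the depth behind a single peak is not known.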
